A study of Mus musculus with 20 samples.

Results

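Regions of open chromatin were compared between the first day in control conditions and the day before in C2C12 cells that lack Setd2. C2C12 cells are mouse myoblasts, the precursors of muscle fibres, and fuse into myotubes once they differentiate. The comparison rests on 4 ATAC-seq libraries from 2 knockout (KO) lines, each sampled once on day 0 (D0) and once on day 1 in the control condition (D1 CTL). The study holds 20 such libraries, from wild-type (WT) and KO cells at D0, D1 and D5, with CTL or methionine restriction (MR) at the later days. WT has 2 libraries at D0 and 2 at D1 CTL, used here as the reference for the usual early changes. Joining overlapping peaks of the 4 KO lists, 201868 in all, at a minimum of 1 bp gave 77896 regions, against 101352 regions over all 20 lists. A region touched by a peak of a library is said to be called there. It counted as gained when both D1 CTL lists held it and neither D0 list did, and as lost in the reverse case. By this rule 1484 regions were gained (1.91% of the 77896; 95% Wilson interval 1.81% to 2.0%) and 280 were lost (0.359%; 0.320% to 0.404%). The sources used here do not say how the knockout was made or whether each KO line is 1 clone, and they give no culture medium for D0. Each KO line has 1 library per day, so no region or gene has a replicate test within a line.

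Setd2 is the methyltransferase that places trimethylation on lysine 36 of histone H3 (H3K36me3) over the bodies of transcribed genes, travelling with the elongating polymerase. When myoblasts are induced to differentiate, MyoD and then myogenin bind E-boxes, short CANNTG motifs, at promoters and enhancers of muscle genes, and many of these sites become accessible to nucleases and transposases. ATAC-seq reads that accessibility by inserting sequencing adapters into open DNA, and it does not measure transcription.

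A few promoters show what the comparison found, and their sequences are given here for reference. They come from RefSeq on build GRCm38.p6, cover the 250 bases before the annotated start site and are written 5′ to 3′ on the strand of the gene. Klhl40 (chr9:121777357-121777606, + strand) and Synpo2l (chr14:20668355-20668604, - strand) were called in both KO D1 CTL lists and in neither KO D0 list, while all 4 WT lists held them. Klhl40 encodes a kelch protein that stabilises thin filament proteins of the sarcomere, and Synpo2l encodes an actin-binding protein of striated muscle. Myog (chr1:134289754-134290003, + strand), which encodes myogenin, and Tnnt2 (chr1:135836084-135836333, + strand), which encodes a troponin T, were called in both WT D1 CTL lists, in neither WT D0 list and in none of the 4 KO lists. Capitals in these sequences mark each CANNTG.
Klhl40: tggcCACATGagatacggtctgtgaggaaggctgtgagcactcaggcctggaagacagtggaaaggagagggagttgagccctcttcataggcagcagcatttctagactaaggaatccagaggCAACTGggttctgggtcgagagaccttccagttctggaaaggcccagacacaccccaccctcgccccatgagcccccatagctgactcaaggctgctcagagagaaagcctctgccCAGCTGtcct
Synpo2l: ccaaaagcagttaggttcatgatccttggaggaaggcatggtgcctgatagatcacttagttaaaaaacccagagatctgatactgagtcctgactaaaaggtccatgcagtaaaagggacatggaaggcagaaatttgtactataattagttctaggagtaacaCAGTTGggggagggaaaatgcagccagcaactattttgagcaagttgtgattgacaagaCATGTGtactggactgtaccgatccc
Myog: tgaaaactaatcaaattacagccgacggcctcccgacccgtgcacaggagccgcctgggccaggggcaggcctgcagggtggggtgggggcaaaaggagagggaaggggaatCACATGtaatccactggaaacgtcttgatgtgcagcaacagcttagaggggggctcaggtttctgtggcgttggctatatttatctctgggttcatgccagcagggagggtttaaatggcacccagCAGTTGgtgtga
Tnnt2: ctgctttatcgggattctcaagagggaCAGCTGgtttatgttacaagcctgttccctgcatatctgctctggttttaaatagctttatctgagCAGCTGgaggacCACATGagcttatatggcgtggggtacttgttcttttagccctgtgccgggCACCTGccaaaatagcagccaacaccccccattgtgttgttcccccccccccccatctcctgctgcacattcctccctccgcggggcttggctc
The Mgst2 promoter (chr3:51660929-51661178, + strand), upstream of a glutathione transferase gene, went the other way: it was called in both KO D0 lists and in neither KO D1 CTL list. Capitals mark its TGANTCA, the motif of AP-1 factors. The Klhl40 sequence above also holds a TGANTCA, left in lower case there.
Mgst2: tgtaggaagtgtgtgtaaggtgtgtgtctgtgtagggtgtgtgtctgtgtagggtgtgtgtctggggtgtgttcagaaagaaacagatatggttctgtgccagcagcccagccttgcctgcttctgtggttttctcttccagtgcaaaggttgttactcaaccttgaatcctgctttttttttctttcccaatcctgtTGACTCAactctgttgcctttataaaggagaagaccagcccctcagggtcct

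The 4 KO lists differed in length and depth, and every count of gained or lost regions moves with that. The KO D0 lists held 63530 peaks in line 1 and 30629 in line 2, and the KO D1 CTL lists held 61045 and 46664. The background pileup recovered from each list, a measure of depth, was 5.20 and 2.52 at D0 and 3.51 and 2.30 at D1 CTL. Line 2 at D0 was thus the shortest list, and its depth was close to that of line 2 at D1 CTL. The log2 number of peaks changed by -0.06 in line 1 and by 0.61 in line 2, with a mean change of 0.28 (two-sided exact permutation test within lines, p = 1.0). With 2 lines this exact test cannot go below 0.5, and an exact permutation test of 2 against 2 libraries cannot go below 0.333. In bulk cells, a site open in more cells and a site more open in each cell cannot be told apart. A peak was called at an end of Setd2 itself in all 4 KO lists, which does not check the knockout, since a small edit leaves a promoter open.

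The lines changed by different regions. In line 1, 10926 regions were gained (14%) and 12787 were lost (16.4%), while in line 2 16572 were gained (21.3%) and 1756 were lost (2.25%). The 1484 shared gains made up 13.6% of the gains of line 1 and 8.95% of those of line 2. The 280 shared losses made up 2.19% and 15.9% of the losses. A further 1725 regions went in opposite directions, of which 1630 were lost in line 1 and gained in line 2. Of the regions gained in line 2, 70.5% were called in line 1 at D0, where 80.1% of all 77896 regions were, and 10045 regions were called in every KO list but D0 of line 2.

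**Figure D1:**
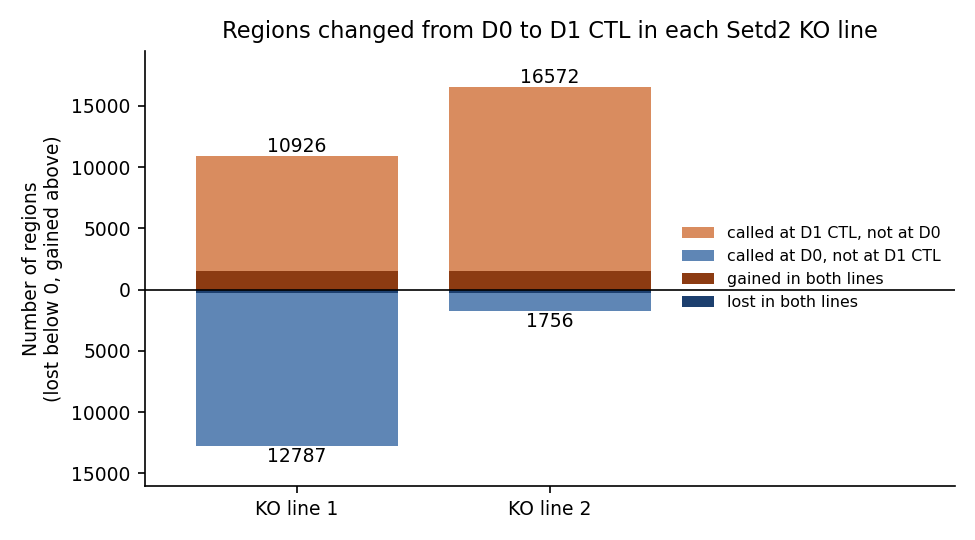
Number of regions (vertical axis) gained above 0 and lost below 0 from D0 to D1 CTL in each Setd2 KO line (horizontal axis), with the regions shared by both lines in dark colour. The shared 1484 gains and 280 losses are a small part of either line's changes, and line 2 lost 1756 regions where line 1 lost 12787.

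The excess of shared gains over losses held with depth equalised but not with lists cut to equal length. When each list was cut to its 30629 strongest peaks, 757 regions were gained and 830 were lost. With depth equalised instead, 2547 were gained and 234 were lost. With a −log10 q of at least 2 the counts were 1328 and 278. Leaving out the D0 library of line 2 loosens the rule, since a loss then needs a call in 1 D0 list only, the longest. By that rule 1860 regions were called in both D1 CTL lists and not at D0 in line 1. The 10295 regions called at D0 in line 1 and in neither D1 CTL list cannot be set against the 280. Which count was larger thus changed with the way the lists were made comparable. The counts alone therefore give no direction for KO chromatin as a whole, and the results below turn on which regions changed.

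The gained regions were short, weak and mostly far from gene ends. Their median width was 134 bp, against 341 bp for the 25684 regions held by all 4 lists and 174 bp for all 77896. Joining peaks of more lists can widen a region, and how much of the difference that made was not tested. Their median −log10 q, the authors' peak confidence, was 4.22 in the line 1 list and 3.21 in the line 2 list, where the medians of all peaks were 7.98 and 6.11. Only 166 of the 1484 reached a −log10 q of 5 in both D1 CTL lists. At the weak end the lower of the 2 values was 1.20, just inside the authors' threshold. Of the gained regions 6.81% lay within 1 kb of an end of a protein-coding gene. The share was 28.0% for the regions in all 4 lists and 18.3% for all 77896. Over 50 kb from any gene end lay 31.8% of the gained regions, 19.4% of those in all 4 lists and 25.0% of all 77896. Inside a gene lay 56.1% of the gained regions, 65.9% of those in all 4 lists and 59.2% of all 77896. The lost regions were much alike, with a median width of 108 bp and 7.86% at gene ends. A weak peak is more easily missed by 1 list than a strong one, so part of each class can be regions near the calling threshold, and how large a part was not tested.

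**Figure D2:**
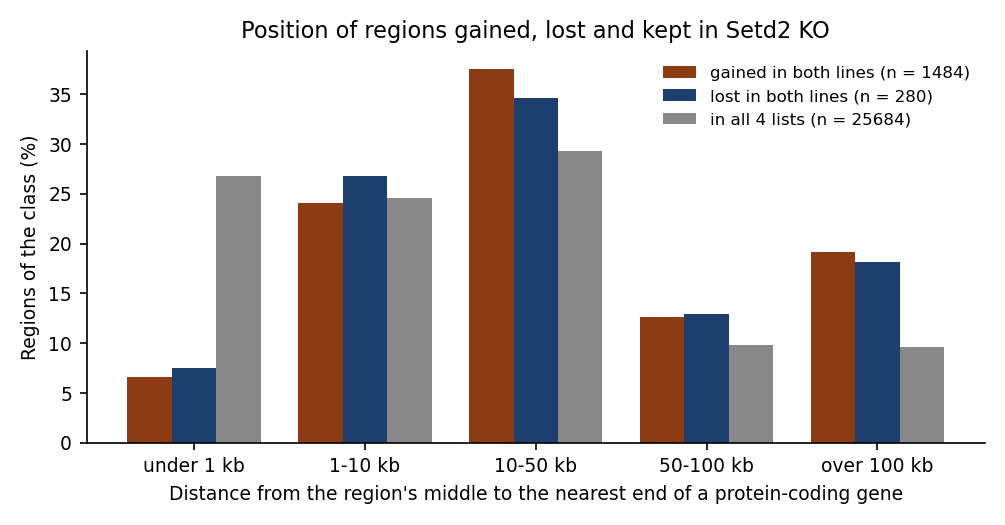
Share of regions (vertical axis, %) by distance to the nearest end of a protein-coding gene (horizontal axis), for regions gained in both KO lines, lost in both, or held by all 4 KO lists. Under 1 kb lie 6.60% of the gained and 7.50% of the lost regions but 26.8% of those in all 4 lists.

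Libraries that did not enter the rule were then read at these regions. In the MR libraries of the KO lines at D1, which share the day but not the condition, the gained regions were called at 54.0% in line 1 and 28.7% in line 2. The lost regions were called at 14.6% and 26.1%, and all 77896 regions at 61.0% and 43.1%. Both classes thus lay below the share of all regions. Gained regions stood above lost ones in line 1, and in line 2 the shares were nearly equal. Both MR libraries held 286 of the gained regions and 21 of the lost ones, and neither held 543 and 187. At D5 in CTL, line 2 held 10.9% of the gained and 20.4% of the lost regions, below the 37.1% of all regions. The D5 library of line 1 had 644 peaks in all and gives no usable share.

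In WT cells the gained regions were called more often at D1 CTL than at D0, and the lost ones less often. The regions gained in KO were called at 36.7% and 46.1% in the WT D0 lists and at 67.3% and 52.5% in the WT D1 CTL lists, a mean of 41.4% ± 6.67 and 59.9% ± 10.5 (SD, n = 2 each). The regions lost in KO were called at 36.8% and 54.3% at D0 and at 28.9% and 13.9% at D1 CTL. Neither pair of groups overlapped. Each difference, 18.5 and -24.1 percentage points, had a two-sided exact permutation p of 0.333, the smallest that 2 against 2 allows. Over all 77896 regions the change in WT was 1.16 points, and over the regions in all 4 KO lists it was -2.72. Of the 1484 gained regions, 455 were called in all 4 WT lists (30.7%, against 41.0% of all 77896 regions) and 404 in none of them (27.2%, against 33.4%). A further 181 were themselves gained in WT, that is in both D1 CTL lists and neither D0 list (12.2%, against 3.0%). Only 7 were lost in WT (0.472%, against 1.92%). The 77896 include regions called in KO at D0, which cannot be gained there. Of all regions gained in line 1 and in line 2, 9.55% and 5.21% were gained in WT, and 0.503% and 1.51% were lost.

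The strongest gained regions, ranked by their within-list percentile in the weaker of the 2 D1 CTL lists, were mostly open in WT at D1 CTL as well. The first (chr14:48331010-48331220), 49431 bp from Peli2, a ubiquitin ligase gene of innate signalling, had a −log10 q of 20.4 in line 1 and 27.9 in line 2. The same region reached 14.4 and 14.6 in WT at D1 CTL and was called in 1 of the 2 WT D0 lists. A region inside Mylk (chr16:34855270-34855398), the gene of myosin light chain kinase, had values of 15.9 and 17. It was also new in WT, with 17.9 and 11.7 at D1 CTL and no peak at D0. The same pattern held inside Smg6 (chr11:75013022-75013247), which encodes a nuclease of nonsense-mediated decay, with 15.4 and 11.8 in KO and 19.6 and 11.7 in WT. A region 18402 bp from Rgma (chr7:73356943-73357117), which encodes a BMP co-receptor, had 23.2 and 9.79 in KO and 30.8 and 18 in WT at D1 CTL, again without a WT D0 peak. The regions near Adamts16, a metalloproteinase gene, and inside Sh2d4b were in both WT D0 lists already. The region inside Hipk2, a kinase gene, and the one inside Maml1, which encodes a Notch co-activator, were in 1 of the WT D0 lists and both WT D1 CTL lists. A region 4952 bp from Ehd4, an endocytic recycling gene, was in none of the 4 WT lists, although both WT libraries under MR at D1 held it. The last of these 10, a region 741709 bp from Arrdc4, was called in 1 WT D1 CTL list.

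The strongest lost regions were weaker than the strongest gained ones. The first, 3623 bp from Gpat4, a glycerolipid synthesis gene, had a −log10 q of 9.51 and 6.82 at D0 and was called in all 4 WT lists. The region inside Thada had 14.4 and 5.61 and the one inside Igfbp7, the gene of a secreted growth factor binding protein, had 8.98 and 5.07, and neither was in any of the 4 WT lists. The region 845 bp from Srrt, an RNA processing gene, had 8.89 and 6.0 and was also lost in WT, with 2.16 and 5.70 at D0 and no peak at D1 CTL. A region 83059 bp from Sqle, the gene of a cholesterol synthesis enzyme, had 9.69 and 5.36, and both KO MR libraries at D1 held it with 4.03 and 4.18. The remaining named regions, near or inside Ifitm7, Mmadhc, Adnp, Lpp and Gm2396, had values of 8.32 to 12.6 in line 1 and 4.95 to 5.52 in line 2.

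Except for the gains of line 1, the strongest changes of 1 line alone exceeded the strongest shared ones. Shared gains reached a −log10 q of 42.3 in line 1 and 27.9 in line 2 at D1 CTL. Shared losses reached 19.8 and 6.99 at D0. The region 7263 bp from Klf3, which encodes a repressor of the Krüppel-like family, was absent at D0 in line 1 and reached 40.3 at D1 CTL, while line 2 held it on both days with 1.90 and 9.38. WT held this region in all 4 lists, with 13.7 and 16.8 at D0 and 57.0 and 44.2 at D1 CTL. The region near Alg10b appeared at 39.1 in line 1 and was in neither list of line 2 and in none of the 4 WT lists. In the other direction, the region inside Dctn1, a dynactin gene, had 60.8 at D0 in line 1 and no peak in the other 3 KO lists. The region inside Ciapin1 had 47.4 there and likewise no peak in the other 3. Among the strongest gains of line 2, regions inside Dop1b at 42.3, Col23a1 at 38.2 and Hlx at 35.9 were held by line 1 and by WT on both days. The D0 list of line 2, the shortest, was the one that lacked them. Another, 15281 bp from Ndrg1, a stress-response gene, reached 36.8 and was held by line 1 with 7.77 and 5.02. It had no WT D0 peak and reached 30.3 and 11.7 in WT at D1 CTL. The strongest losses of line 2 alone were weaker, with 12.3 near Snapc3 and 9.82 inside Lrrc4c at D0.

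The question of which early differentiation loci open without Setd2 was put to the regions that WT cells gained. In WT 5002 of 66923 regions were gained between D0 and D1 CTL (7.47%) and 1766 were lost (2.64%). These calls use no KO library. Of the 5002, 190 opened in both KO lines (3.80%; 95% Wilson interval 3.30% to 4.36%), meaning that they passed from no call at D0 to a call at D1 CTL in each. Over all 66923 WT regions this share was 1.69%. At D0 1215 of the WT-gained regions (24.3%) were already called in at least 1 KO line, where 70.7% of all WT regions were, so fewer of the latter could open. Among those that neither KO line held at D0, 190 of 3787 WT-gained regions opened in both lines (5.02%) and 1133 of 19575 WT regions in all (5.79%). A further 879 of the WT-gained regions opened in line 1 without a call in line 2 (17.6%, against 5.28% of all WT regions). In the reverse case, 196 opened in line 2 without a call in line 1 (3.92%, against 2.46%). Both classes need a region without a D0 call in either line. Of the 3787 and 19575 such regions, 879 and 3534 were in the line 1 class, the higher share for WT-gained ones. The line 2 class held 196 and 1646 of them, the lower share for WT-gained ones. None of the 4 KO lists held 2522 of them (50.4%; 49.0% to 51.8%), where the share among all WT regions was 19.8%. A region called at D0 in KO cannot fall in this class. Over the regions that neither KO line held at D0, it was 2522 of 3787 WT-gained and 13262 of 19575 in all, which are similar shares. Stronger WT gains opened more often: the share opened in both lines was 2.40% in the weakest of 4 equal groups by WT peak strength and 6.71% in the strongest, and the share in no KO list was 56.8% and 43.4%.

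By library, the WT-gained regions were called in line 1 at 23.6% at D0 and 41.0% at D1 CTL, and in line 2 at 3.22% and 21.1%. The differences were 17.4 and 17.9 percentage points (mean 17.7, two-sided exact permutation test within lines p = 0.5, the smallest possible; adjusted p = 1.0 over 5 tests). All WT regions together changed by 0.973 points in line 1, from 69.2% to 70.2%, and by 17.5 points in line 2, from 41.6% to 59.1%. The change of the WT-gained regions thus exceeded that of all regions in line 1 and was close to it in line 2. The WT-lost regions were called at 80.9% and then 65.3% in line 1 and at 37.7% and then 42.2% in line 2.

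**Figure D3:**
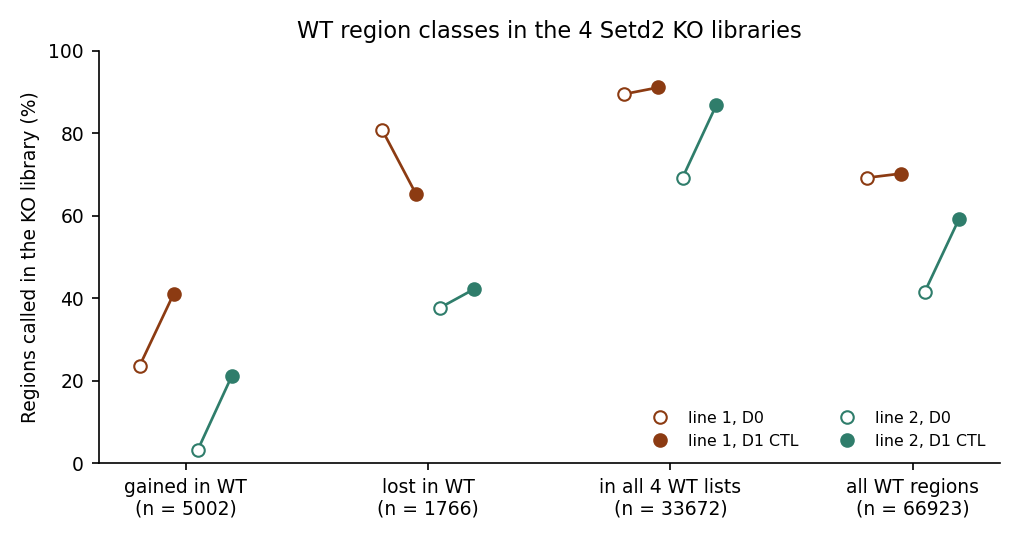
Share of regions called in each KO library (vertical axis, %) for regions gained in WT, lost in WT, held by all 4 WT lists, and all WT regions (horizontal axis), with D0 as open and D1 CTL as filled points joined within each line. WT-gained regions lie 17.4 and 17.9 points higher at D1 CTL in lines 1 and 2, and all WT regions 0.973 and 17.5.

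Openings and closings were also counted within each line. Of the WT-gained regions that changed in line 1, 1089 opened and 218 closed, so 83.3% of changes were openings (95% Wilson interval 81.2% to 85.2%, counting error only). Of the WT-lost regions that changed there, 58 opened and 333 closed (14.8%; 11.7% to 18.7%), and over all WT regions 53.4% of changes were openings. In line 2 the shares were 98.2% for WT-gained, 58.5% for WT-lost and 91.2% for all WT regions. These shares follow how many regions of each class were called at D0, since only a region not called then can open and only a called one can close. Taken per region that could change, the order of the classes for openings differed between the lines. Of the regions not called at D0 in line 1, 28.5% of the WT-gained, 24.5% of all and 17.2% of the WT-lost ones opened. In line 2 these shares were 18.9%, 33.1% and 24.7%. Of the regions called at D0, 18.5% of the WT-gained, 9.52% of all and 23.3% of the WT-lost ones closed in line 1. In line 2 10.6%, 4.5% and 29.0% closed, the first of these over 161 regions. Only 1 WT-gained region closed in both KO lines and only 8 WT-lost regions opened in both. Regions within a library are not replicates, so these shares carry no test between lines or genotypes.

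**Figure D4:**
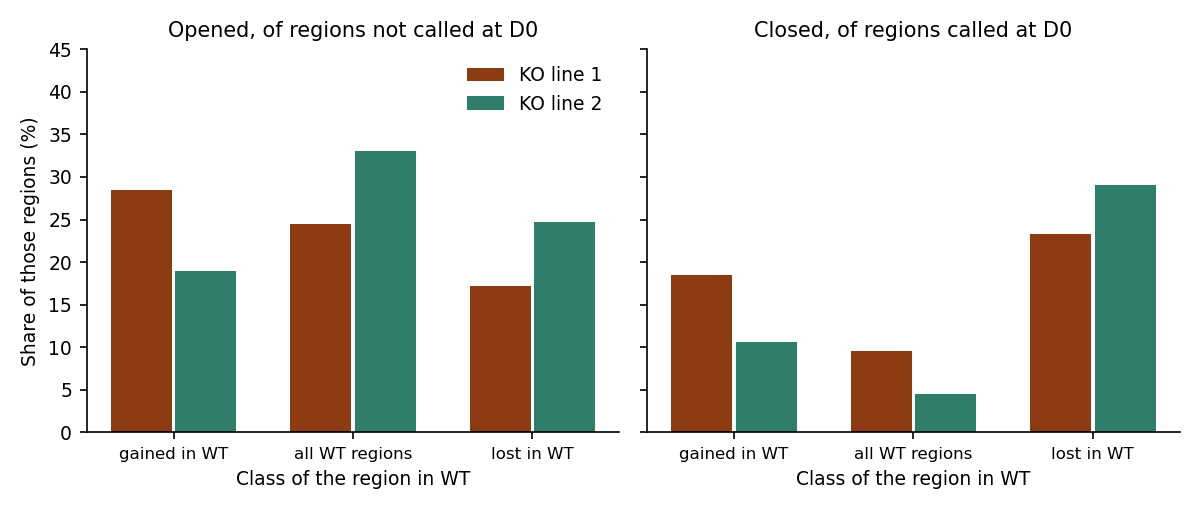
Share of regions (vertical axis, %) that opened in a KO line among those not called at D0 (left) and that closed among those called at D0 (right), by what the region did in WT (horizontal axis), with 1 bar per KO line. WT-gained regions opened at 28.5% in line 1 and 18.9% in line 2, and all WT regions at 24.5% and 33.1%.

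At the gene ends of the myogenic transcription factors, no change was shared by both KO lines. The Myod1 gene, which encodes the factor that starts the program, had a peak within 1 kb of an end in all 4 KO lists, with a −log10 q of 12.3 and 1.45 at D0 and 6.94 and 3.66 at D1 CTL. Mef2d, which encodes a partner of MyoD, likewise had a gene-end peak in all 4 KO lists. Myog had no gene-end peak in any of the 4 KO lists, while WT gained one with 8.33 and 5.10 at D1 CTL. Both WT MR libraries at D1 and all 4 WT libraries at D5 also held it, and none of the KO libraries of any day did. At D5 the CTL and MR lists of KO line 1 held only 644 and 1881 peaks, so a missing peak there says little. No gene end of this list of 14 was gained or lost in both KO lines. Of all 21627 genes 0.240% were gained and 0.0231% were lost, so none among 14 says little about these genes. Within 10 kb, 2 of the 14 genes had a region gained in KO (14.3%, where 4.83% of all 21627 genes did), namely Tcf12, which encodes an E-protein partner of MyoD, and Pax3, a gene of earlier muscle precursors. In WT 5 of the 14 had a gained region that near, where 16% of all genes did. Counting each KO line by itself, 7 of the 14 had one in line 1 and 11 in line 2. Of all genes 22.6% and 41.9% did. Those counts, as the ones below, come from lists of genes chosen with results of these data known, and genes with many regions nearby have more chances to be counted.

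Of 24 early differentiation genes, 6 had a gained region inside or within 10 kb (25.0%), and 15 did in WT (62.5%). Counting only genes with any KO region that near, the KO share was 28.6% of 21 early differentiation genes and 6.51% of 16031 genes in all. At Klhl40 a region over the promoter printed above (chr9:121777344-121777799) went from no peak in either KO line to 22.5 in line 1 and 6.40 in line 2. WT held that region throughout, with 15.6 and 25.4 at D0 and 31.8 and 23.7 at D1 CTL. Klhl40 also showed a second region, 825 bp from its end, that WT gained with 10.9 and 9.74 and that opened in KO line 1 alone, with 2.88. At Igfbp5, the gene of an IGF-binding protein secreted by differentiating myoblasts, 2 regions were gained in KO, with 5.59 and 1.94 at the first and 4.10 and 1.54 at the second, and both were called in all 4 WT lists. A region near Vgll2, which encodes a TEAD co-factor of muscle, had 8.27 and 2.25 in KO and was in all 4 WT lists. At Lmod3, which encodes an actin nucleator of the thin filament, a region had 11 and 1.71 in KO, again with peaks in all 4 WT lists.

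The other 2 of these 6 genes, Chrnd and Chrng, share a region that was new in both genotypes. It (chr1:87204573-87204712) lay 4572 and 1169 bp from their ends and was in no D0 list of either genotype. It reached 7.71 and 1.63 in the KO D1 CTL lists and 18.3 and 8.77 in the WT ones. These genes encode the delta and gamma subunits of the muscle receptor. A region inside Mybph (chr1:134195899-134196341), which encodes a myosin binding protein, was likewise in no D0 list and reached 7.06 and 1.28 in KO and 14.3 and 13.4 in WT. Merging the KO lists joined it to a peak called at D0, so it is not among the 1484. Both loci also had WT-gained regions that no KO list held, at 312 bp from Chrng and 181 bp from Mybph.

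Among 14 genes of fusion, 1 had a region gained in KO within 10 kb (7.14%), and 7 did in WT. Of all genes 4.83% and 16% did. The KO region lay 61 bp from an end of Mymx, which encodes the micropeptide myomixer (chr17:45602028-45602242). It had 7.89 and 1.67 in the KO D1 CTL lists, 12.2 and 14.9 in WT at D0 and 25.4 and 24.9 in WT at D1 CTL. Mymk, the gene of the fusion protein myomaker, had a gene-end peak in line 1 on both days, with 7.53 and 14.8, and in line 2 at D1 CTL, with 6.21. In WT it had 15.7 and 17.9 at D0 and 76.9 and 43.9 at D1 CTL. Of the WT-gained regions near Mymk, 3 were in none of the 4 KO lists, and 1 opened in line 1 alone.

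Of 35 sarcomere genes, 20 had a region gained in WT within 10 kb (57.1%, where 16% of all genes did), and 3 had one gained in both KO lines (8.57%, where 4.83% did). Counting each line by itself, 22 of the 35 had a gained region that near in line 1 and 18 did in line 2, where 22.6% and 41.9% of all genes did. The KO regions lay near Myh3, Tnni1 and inside Ldb3. Myh3 encodes embryonic myosin, and its region (chr11:67104872-67104974), 2631 bp from an end, had 2.25 and 5.94 in KO at D1 CTL. In WT it went from 2.65 and 3.20 to 34.2 and 29.1. Tnni1 encodes the slow troponin I, and its region had 6.61 and 3.87 in KO, where WT went from 9.78 and 7.92 to 36.2 and 25.9. Ldb3 encodes a Z-disc protein, with 5.31 and 1.94 in KO and a peak in all 4 WT lists. Of the 38 WT-gained regions near sarcomere genes, 24 were in none of the 4 KO lists and none opened in both KO lines. Of all WT-gained regions 50.4% were in no KO list and 3.80% opened in both lines.

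Several gene-end regions of actin, troponin and creatine kinase genes were gained in WT and not in both KO lines. Gene ends of 6 of the 35 sarcomere genes were gained in WT (17.1%, where 0.929% of all genes were). None was gained in both KO lines, where 0.240% of all genes were, so that absence says little by itself. Acta1, which encodes skeletal alpha-actin, had no KO peak at D0 near its ends. In WT its gene-end peak reached 21.2 and 9.49 at D1 CTL, and in KO line 2 alone it was 1.45. Actc1, the cardiac alpha-actin gene that differentiating myoblasts also use, had 5.90 and 7.49 in WT and no KO peak within 1 kb of its ends. Ckm, the muscle creatine kinase gene, had 7.62 and 4.55 in WT and likewise no KO gene-end peak. Within 10 kb, single KO lines did gain regions: Acta1 had 1 in line 1 and 2 in line 2, Actc1 had 1 in line 1 and Ckm had 1 in line 2. The Tnnt2 promoter printed above had 14.4 and 9.24 in WT, although other peaks near the ends of Tnnt2 were called in all 4 KO lists. A region 763 bp from Tnnc1, the gene of slow troponin C, was among the 10 strongest WT gains that no KO list held, with 19.7 and 15. Another of these, inside E2f1, the gene of a cell cycle transcription factor, had 31.9 and 19.4.

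Of 14 genes of excitation and calcium handling, 3 had a region gained in KO within 10 kb (21.4%) and 8 did in WT (57.1%). Of all genes 4.83% and 16% did. At Ryr1, the calcium release channel gene, a region 1308 bp from an end (chr7:29123781-29123962) had 9.76 and 4.83 in KO. WT held it with 34.5 and 55.8 at D0 and 67.7 and 71.2 at D1 CTL. At Atp2a1, the calcium pump gene of fast fibres, the region had 5.37 and 2.11 in KO, and WT went from 3.75 and 4.06 to 16.5 and 11.8. Inside Jph1, which encodes junctophilin, a region had 8.39 and 1.23 in KO, with WT at 9.37 and 11.9 and then 25.2 and 30.0. Casq2 and Cacna1s, the genes of calsequestrin and of the voltage sensor, had WT-gained gene-end regions that no KO list held, although each had another gene-end peak in 1 KO line at D1 CTL, Casq2 with 4.23 in line 2 and Cacna1s with 1.29 in line 1.

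Over these 5 lists together, 15 regions inside or within 10 kb of muscle genes were gained in both KO lines. Of them, 12 were already in both WT D0 lists. Of all 1484 gained regions, the 2 WT D0 lists held 36.7% and 46.1%. WT gained 18 regions within 1 kb of an end of these genes that no KO list held, at 16 genes. They were picked for having no KO call, and 50.4% of all WT-gained regions had none. Other WT-gained regions that near an end were held by KO lists, as at Acta1, Cdkn1a, Klhl40, Tnnc2 and Tnnt3. In line 2 the D1 CTL values of the 15 were often near the threshold, and 8 of the 15 had a −log10 q under 2 there. Of all 1484 gained regions, 1203 reached 2 in that list and 1096 in both D1 CTL lists. With a minimum of 2 in both D1 CTL lists 7 were kept, at Atp2a1, Klhl40, Myh3, Ryr1, Tcf12, Tnni1 and Vgll2.

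**Figure D5:**
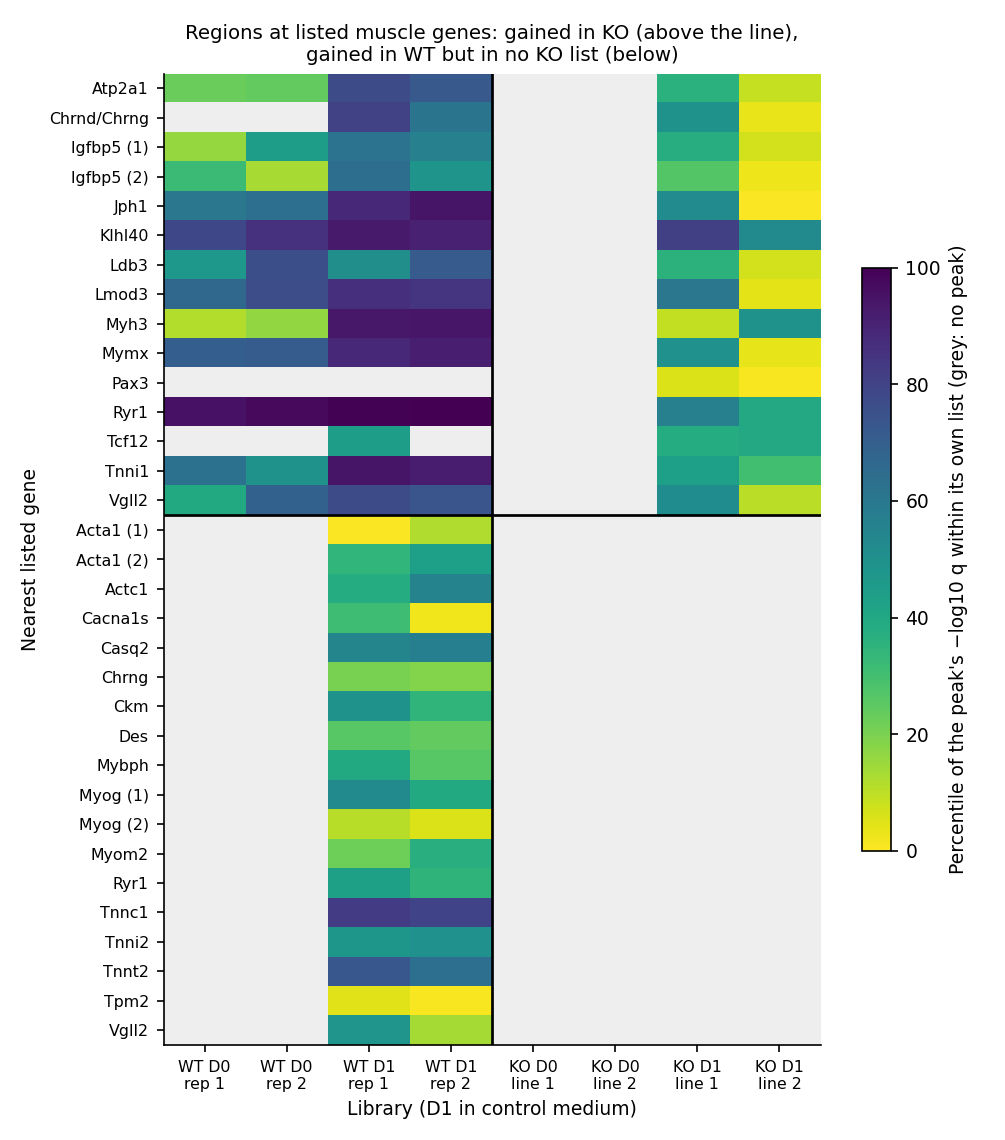
Regions at listed muscle genes (rows) in 8 libraries (columns), coloured by the percentile of the peak's −log10 q within its own list, grey where no peak was called. The upper block shows the 15 regions gained in both KO lines, inside or within 10 kb of a gene. Of these, 12 carry peaks in both WT D0 libraries. The lower block shows the 18 regions within 1 kb of a gene end gained in WT and held by no KO list. Its KO cells are grey because the regions were picked that way.

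In the other lists few genes had a region gained or lost in both KO lines. Of 14 repressors of myogenesis, Hes1, a Notch target, had a gained region in KO with 1.84 and 2.20, and Id1, which encodes an inhibitor that holds E-proteins away from MyoD, had a lost one with 3.48 and 2.39. Of all genes 4.83% had a gained and 0.971% a lost region within 10 kb in KO. A count of 0 or 1 in lists this short therefore says little about their members. Gene-end peaks of Id1 and Id3 were called in all 4 KO lists. No AP-1 gene of 12 had a gained region in KO, and Mafk had a lost one with 2.62 and 2.61. Of 10 genes of cell cycle exit, none had a gained region, and Gadd45a, a stress-induced growth arrest gene, had a lost one with 11.8 and 3.54. Cdkn1a, which encodes the p21 inhibitor, gained a gene-end peak in WT with 4.39 and 3.88, and in KO it appeared in line 1 alone with 2.22. Of 12 cell cycle genes, Pcna had a region gained in KO. Of 12 genes active in all cells, Hprt and Polr2a had one (16.7%), a share as high as in some of the muscle lists. None of 18 genes of other lineages had a region gained in KO by this rule. A WT-gained region near Sox9, a cartilage factor gene, opened in both KO lines with 13 and 2.50, but merging the KO lists joined it to a peak called at D0. Of these 18 genes, 13 had no gene-end peak in any of the 4 KO lists, where 9907 of all 21627 genes had none.

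Gene ends and promoters repeated the contrast in number. Within 1 kb of an end, 52 of 21627 genes were gained in both KO lines (0.240%) and 5 were lost (0.0231%), where WT gained 201 (0.929%) and lost 58 (0.268%). Only 4 genes were gained in both genotypes, 7.69% of the KO set and 1.99% of the WT set. Over the 32619 RefSeq promoter windows of 300 bases, 58 were gained in both KO lines (0.178%), 8 were lost (0.0245%), 200 were gained in WT (0.613%) and 65 were lost in WT (0.199%).

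A particular E-box was more frequent in the gained promoters than in all promoters. CAGCTG, the E-box letters that MyoD and myogenin favour, reads the same on both strands and is contained in the general CANNTG. It stood in 25 of the 58 promoters gained in KO (43.1%) and in 40.5% of those gained in WT. Among all promoters the share was 16.4%, and among the 6738 called in all 4 KO lists it was 15.1%. Some windows belong to the same gene and overlap. Counted by gene, 23 of 52 KO-gained genes carried it (44.2%), against 18.4% of all genes. The general CANNTG was in 82.8% of the KO-gained windows and 72.3% of all. Mean GC content was 54.4% in the KO-gained windows and 53.9% in all. TGANTCA, searched on both strands as the AP-1 motif, stood in 5.17% of the KO-gained windows, 7.85% of all and 16.9% of the 65 lost in WT. It was in 4 of the 8 windows lost in KO, including that of Mgst2, and 2 of those 4 overlap each other. Among the printed promoters, Klhl40 has 1 CAGCTG, Tnnt2 has 2, and those of Synpo2l and Myog have none in the 250 bases, so the letters do not separate the promoters that opened in KO from those that did not. A match describes letters and does not show binding.

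The mix of peaks changed little. Peaks within 1 kb of a gene end made up 21.2% and 25.5% of the KO D0 lists of lines 1 and 2 and 20.1% and 25.2% of the D1 CTL lists. The share changed by -1.14 and -0.275 points (two-sided exact permutation test within lines, p = 0.5; adjusted p = 1.0). The change in log2 peak number was 0.48 and -0.11 in the 2 WT replicates, taken by their replicate numbers. It differed from that in KO by 0.09 on average (two-sided exact permutation test, p = 0.667; adjusted p = 1.0).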

How the data were processed

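ATAC-seq libraries were tagmented with a commercial kit and amplified with 10 PCR cycles, per the labels' protocols. The authors deposited 1 broadPeak list per library, on GRCm38 per the submitters' processing notes. Aligner and peak caller are not given in the sources used here. Each deposited peak has a score, a fold enrichment (a ratio), a −log10 p-value and a −log10 q-value, which served for ranking, filtering and describing peaks of the same list. No list had a −log10 q-value below 1.00. Depth, the background pileup, was solved from the most frequent combination of fold and −log10 p in a list, assuming Poisson p-values.

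Regions were merged at 1 bp of overlap with Python 3.11.15, pandas 2.3.3 and numpy 2.4.6. Genes came from a RefSeq table of GRCm38.p6 without strand, and all 173 listed genes matched. Libraries were paired by KO line, since the same line was sampled on both days, and no 2 lists were identical. WT replicates are not said to be separate cultures, so their p-values may measure technical spread. Of 200 gained and 200 lost regions planted into the KO lists as a check, 200 and 200 were recovered. Named regions are the 10 strongest gained and lost by the weaker list, the 5 strongest changed each way in 1 line alone, the 10 strongest WT gains that opened in both KO lines and the 10 in no KO list, and listed genes whose calls changed, of which the text gives examples. Members and lists were chosen with earlier results of these data known. Alternatives changed overlap, q-value, list length, depth, libraries and pairing.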

Additional observations from a re-analysis of the deposited data

Results flagged for a closer look

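The KO lines differed in direction for the number of peaks. Its log2 change from D0 to D1 CTL was -0.0576 in line 1 and 0.607 in line 2, and the lines were flagged because they moved in opposite ways with 1 pair of libraries each. The D0 list of line 2 was the shortest of the 4. The difference between the lines was not tested.

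The share of WT-lost regions that were called in KO also went opposite ways. It changed by -15.6 percentage points in line 1 and by 4.47 in line 2, and this difference was not tested either. In line 2 all WT regions together rose by 17.5 points.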

How the results depend on the processing

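Counts of changed regions depended on list length and depth. With lists cut to equal length the shared counts were 757 gained and 830 lost, line 1 had 6428 and 6281, and line 2 had 6231 and 6171. With depth equalised, 2547 regions were gained in both lines, 234 were lost in both and line 1 lost 6862. With 1 line left out, the gained count was 10939 to 18068 and the lost count 1890 to 12813, since 1 line then decides. Without the D0 library of line 2, chosen after seeing the data, 10295 regions were lost, as a loss then needs a call in 1 D0 list only. Leaving out 1 KO line, the change in log2 peak number was -0.0576 to 0.607 and the change in WT-lost regions was -15.6 to 4.47 points, and without WT replicate 1 or 2 the latter was 3.24 or -2.39. The KO against WT difference in peak number was -0.128 with depth equalised, and -0.242 to 0.423 with 1 library pair left out, including 0.389 and -0.208 without WT replicates 1 and 2.

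The share of openings among changed regions was added after seeing the data. For WT-gained regions it was 79.2% in line 1 and 87.2% in line 2 at equal list length, and 86.7% in line 1 with depth equalised. For WT-lost regions it was 28.1% and 18.5% at equal length, so that most changes in line 2 were then closings, and 22.4% and 54.0% with depth equalised. The causes were not tested. The change in WT-gained regions stayed positive under each of its 9 alternatives, between 12.3 and 22.7 points. Without the pairing by line (no replicate block) its p was 0.667, and the value of 17.7 did not change.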
